A study of Mus musculus with 2 samples.

Results

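The genes described here were 4 Schlafen genes, Slfn1, Slfn2, Slfn5 and Slfn8, and 3 Ms4a genes, Ms4a4b, Ms4a4c and Ms4a6b, 7 of the 32285 genes in the deposited tables. They were selected on measured values, as genes high in resting T cells of these libraries, so their levels by T cell state are given as a description with no test. Their counts were read in barcodes with at least 300 detected genes and at most 5% mitochondrial UMIs. A barcode stands for a droplet, usually holding a single cell, and a UMI for a captured RNA molecule.

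The study asked what Zfp335, a zinc finger transcription factor, does in regulatory T cells (Tregs), the CD4+ T cells that restrain other immune cells. Single-cell RNA-seq covered 2 libraries of YFP+7AAD- cells sorted from the spleens of 7-day-old C57BL/6J mice, 1 library per genotype. The WT library came from mice that, by the study's methods, carried Foxp3-Cre and intact Zfp335. The KO library came from Zfp335fl/fl Foxp3-Cre mice. Both genotypes carried the Cre allele, a fusion of YFP and Cre expressed from the Foxp3 gene, so YFP marked cells that had switched on Foxp3. The number of mice behind each library was not stated, and genotype and library could not be told apart. No value below has a replicate check, and all intervals are 95% intervals that cover counting error only.

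Schlafen proteins restrain the growth of lymphoid cells, and loss of Slfn2 function takes naive T cells out of quiescence, the resting condition in which they survive without dividing. Many Schlafen genes are switched on by type I interferon, a signal that acts on response elements in promoters. Ms4a genes encode small proteins that cross the membrane repeatedly. The best known is Ms4a1, which encodes CD20 of B cells, and Ms4a4b is a T cell protein that associates with GITR, a costimulatory receptor abundant on Tregs.

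The members lay in 2 gene clusters. In GRCm38 (mm10), Slfn5, Slfn8, Slfn2 and Slfn1 spanned 171.3 kb of chromosome 11, from 82951349 to 83122670. Slfn8 was on the minus strand and the other three Schlafen members on the plus strand. Ms4a4c, Ms4a4b and Ms4a6b spanned 126.5 kb of chromosome 19, from 11404770 to 11531256, all on the plus strand. The features table held 29 Slfn and Ms4a genes, of which 22 were not members.

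All 7 members had a RefSeq start site, with 8 promoter windows of 300 bases in all (250 bases before and 50 after each start, GRCm38.p6), since Slfn8 had 2 starts. They were searched on both strands for GAAANNGAA, the core of the interferon-stimulated response element, for TTCNNNGAA, a STAT site, and for GTAAACA, a forkhead site. These motifs can overlap each other. The response element core was found in 8.56% of 32851 windows, the STAT site in 8.30% and the forkhead site in 3.65%. Slfn5, Slfn8 (both windows) and Ms4a6b held the response element core, and no member window held the letters of either other motif. The windows of those 3 genes are shown because they held the core. Slfn5 and Slfn8 had the highest ratios between a resting cluster led by interferon genes and the one led by Ly6c1 and Tcf7. Ms4a6b was not higher by 1.5-fold there, whereas Slfn1 and Ms4a4c, without the core, were. The window of Ms4a4c is shown because it had the highest KO to WT ratio in resting cells. Capitals mark the response element core, read on either strand, and each window is printed along the strand of its gene.
Slfn5, chr11:82951852-82952151, plus strand: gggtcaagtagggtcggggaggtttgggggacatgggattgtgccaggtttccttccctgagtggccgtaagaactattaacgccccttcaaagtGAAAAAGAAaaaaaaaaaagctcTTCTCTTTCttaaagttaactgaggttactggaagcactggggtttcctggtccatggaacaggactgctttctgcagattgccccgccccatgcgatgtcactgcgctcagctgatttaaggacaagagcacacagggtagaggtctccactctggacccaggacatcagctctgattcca
Slfn8, chr11:83020761-83021060, minus strand: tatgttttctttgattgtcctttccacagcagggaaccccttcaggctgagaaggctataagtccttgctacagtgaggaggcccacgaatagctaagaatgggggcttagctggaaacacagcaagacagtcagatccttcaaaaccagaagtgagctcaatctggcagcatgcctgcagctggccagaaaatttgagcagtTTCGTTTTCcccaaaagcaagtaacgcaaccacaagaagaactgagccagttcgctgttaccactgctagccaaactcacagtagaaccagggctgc
Ms4a6b, chr19:11518309-11518608, plus strand: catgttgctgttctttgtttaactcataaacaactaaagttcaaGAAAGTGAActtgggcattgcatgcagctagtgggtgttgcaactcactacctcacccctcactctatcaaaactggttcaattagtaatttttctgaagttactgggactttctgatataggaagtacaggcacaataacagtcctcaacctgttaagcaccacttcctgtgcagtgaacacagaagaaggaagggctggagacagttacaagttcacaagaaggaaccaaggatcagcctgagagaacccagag
Ms4a4c, chr19:11407411-11407710, plus strand: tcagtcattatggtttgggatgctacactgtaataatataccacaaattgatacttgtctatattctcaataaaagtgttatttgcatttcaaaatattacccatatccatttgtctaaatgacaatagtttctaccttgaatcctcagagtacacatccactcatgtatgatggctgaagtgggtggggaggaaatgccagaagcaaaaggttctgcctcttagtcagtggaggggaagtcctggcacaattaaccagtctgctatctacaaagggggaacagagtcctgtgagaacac
The cores began 155 and 132 bases before the start of Slfn5, 47 bases before the start of Slfn8 and 206 bases before that of Ms4a6b. For Slfn5, Ms4a4c and Ms4a6b, the GENCODE gene model began upstream of the RefSeq start, so that these windows lay inside the annotated gene.

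The WT library held 14524 barcodes and 64567991 UMIs, and the KO library 18134 barcodes and 65480052 UMIs. After the filters and removal of likely doublets, 7650 WT and 12666 KO barcodes remained, with medians of 4996 and 2726 UMIs. The libraries shared 70 barcode sequences, 23 of them after filtering. Zfp335 stood at 8.10 CPM (UMIs of the gene per 1000000 UMIs) in WT and 1.05 CPM in KO, a KO to WT ratio of 0.129 (0.0960 to 0.171). Where the 3′ reads lie relative to the deleted part of the gene was not examined. Barcodes were clustered without Slfn and Ms4a genes. Clusters were named from marker lists as resting Treg-like (2742 WT and 5152 KO barcodes, with Ly6c1 and Dapl1 among the leading genes), effector Treg-like (1818 and 75, with Klrg1, Gzmb and Ccl5), activated Treg-like (571 and 1112, with Nefh and Tnfrsf9) and cycling (896 and 1070, 1 S phase-like and 1 mitotic-like cluster). Foxp3 itself stood at 65.9 CPM in WT and 61.8 CPM in KO resting Treg-like barcodes.

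All 7 members were at higher CPM in resting Treg-like barcodes than in effector and cycling barcodes of the same library. The plot of levels by state shows this for each gene. In WT activated barcodes 6 of 7 were also lower, Slfn2 being the exception.

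**Figure D1:**
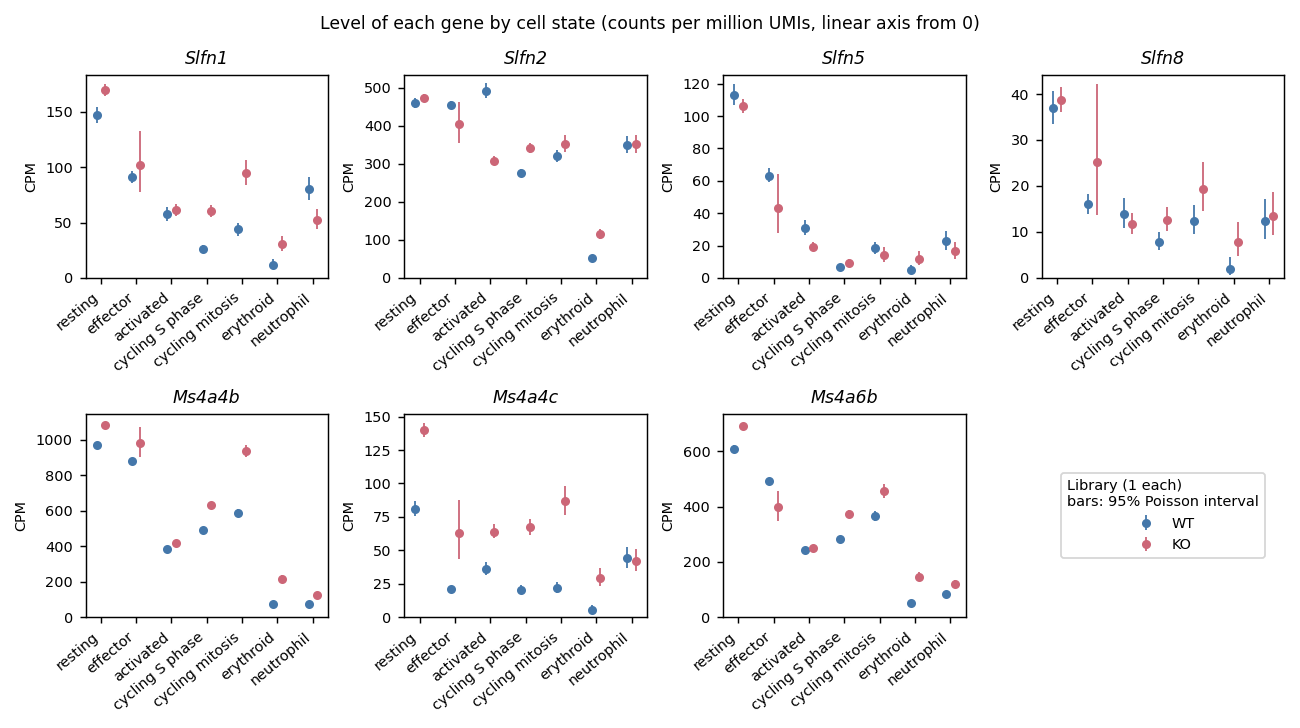
Level of each of the 7 genes by cell state in CPM (y axis, linear from 0), with 1 point per library and bars for the 95% Poisson interval. Slfn5 was at 113 CPM in WT resting barcodes and 6.79 CPM in the WT S phase-like cluster, whereas Slfn2 stayed between 277 and 492.5 CPM in the WT T cell states.

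Slfn1, whose forced expression halts T cell growth, was at 147 CPM (140.2 to 155) in WT and 169.5 CPM (164 to 175) in KO resting barcodes. In WT it was lower in each following state: 91.0 CPM in effector, 57.6 CPM in activated, 43.8 CPM in mitotic-like and 26.5 CPM in S phase-like barcodes. In KO the mitotic-like cluster, at 94.6 CPM, lay above the activated state, at 61.2 CPM, and the S phase-like cluster, at 60.0 CPM, was within the counting interval of the activated state.

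Slfn2, which protects transfer RNAs from cleavage during T cell activation, varied least. It stood at 459.5 CPM in WT and 474 CPM in KO resting barcodes. In WT the effector value of 455 CPM was within the resting interval (447 to 472), and the activated value of 492.5 CPM (474 to 512) was above it. In KO the activated value was 308 CPM (297 to 320), below the S phase-like value of 342 CPM and the mitotic-like value of 353 CPM.

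Slfn5, an interferon-inducible nuclear Schlafen protein, had the widest range. It was at 113 CPM in WT and 106 CPM in KO resting barcodes. Effector barcodes had 63.3 CPM in WT and 43.1 CPM in KO, and activated barcodes 30.7 and 19.4 CPM. The S phase-like cluster had 6.79 CPM in WT and 9.45 CPM in KO, and the order of the states was the same in both libraries.

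Slfn8, a long Schlafen protein with a helicase-like region, was sparse. It was at 36.9 CPM (33.4 to 40.7) in WT and 38.6 CPM (36.0 to 41.4) in KO resting barcodes. The other T cell states ranged from 7.90 to 16.0 CPM in WT and from 11.7 to 25.1 CPM in KO. Of the 50-base words in the last 500 bases of its transcripts, 13.8% also occurred in Slfn9, the neighbouring gene, so reads could be split between them or left uncounted. For the other members the highest such share was 10.5%, for Ms4a4c with Ms4a4b, and it was 0 for Slfn1, Slfn2 and Slfn5. Slfn2, Slfn5, Ms4a4c and Ms4a6b overlapped annotated genes on the opposite strand, and none of the 7 overlapped another gene on its own strand.

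Ms4a4b, the GITR-associated member, was at 968 CPM in WT and 1079 CPM in KO resting barcodes. The effector values were close to these, at 879 CPM in WT and 982 CPM in KO. It was lowest in the activated state, at 381 CPM in WT and 416 CPM in KO, below the S phase-like values of 488 and 632 CPM. Ms4a6b had the same order in WT, whereas in KO its mitotic-like value of 457 CPM lay above its effector value of 398.5 CPM. It ranged from 609 CPM in WT and 691 CPM in KO resting barcodes to 241 and 249 CPM in activated barcodes.

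Ms4a4c was at 81.2 CPM (76.0 to 86.7) in WT and 139.8 CPM (135 to 145) in KO resting barcodes. The WT effector value was 20.8 CPM and the WT cycling value 21.0 CPM, which did not differ beyond counting error, and WT activated barcodes were between, at 36.1 CPM. In KO the activated, effector and cycling values lay together, at 64.1, 62.8 and 72.6 CPM. KO was thus above WT in all 4 states for this gene.

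From resting to effector barcodes in WT, the members' median log2 ratio was -0.69 beside -0.02 over the 7746 genes with at least 200 UMIs in the 2 states. Slfn1, Slfn5, Slfn8 and Ms4a4c were lower by at least 1.5-fold, 4 of 7, against 10.3% of all genes, and no member was higher by that fold, against 9.02%. Since the members were selected for being high in resting cells, nothing is read from these counts. Ms4a4c had the lowest ratio, 0.256 (0.223 to 0.293), and Slfn2 the highest, 0.990 (0.953 to 1.03).

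In activated barcodes, 6 of 7 members in WT and 7 of 7 in KO were lower than in resting barcodes by at least 1.5-fold, against 19.8% and 18.3% of all genes. The exception was WT Slfn2, with a ratio of 1.07 (1.02 to 1.12) in WT and 0.651 (0.624 to 0.679) in KO. In cycling barcodes, 7 of 7 in WT and 6 of 7 in KO were lower by that fold, against 24.2% and 12.6% of all genes. The exception was KO Slfn2, at 0.728 (0.701 to 0.757). The members' median log2 ratio of cycling to resting was -1.95 in WT and -0.94 in KO, beside -0.06 and -0.02 over all genes. Slfn5 fell furthest, to a ratio of 0.0960 (0.0806 to 0.114) in WT and 0.100 (0.0824 to 0.121) in KO. Within the cycling cells, the mitotic-like cluster was above the S phase-like cluster for Slfn1 by 1.65-fold (1.37 to 1.99) in WT and 1.58-fold (1.35 to 1.83) in KO.

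Shares of barcodes with at least 1 UMI were compared at equal depth, with each barcode thinned to 1000 UMIs. Ms4a4b was detected in 58.7% of WT and 61.8% of KO resting barcodes, and Slfn8 in 4.12% and 4.38%. The other members lay between, with Slfn5 at 10.6% in WT and 9.82% in KO. The KO minus WT differences of Slfn2, 1.60 percentage points (-0.652 to 3.85), Slfn8, 0.256 points (-0.691 to 1.20), and Slfn5, -0.727 points (-2.16 to 0.706), had intervals that included 0. Thinned to 2000 UMIs the Slfn5 difference was -2.39 points, and without thinning -2.52 points, both outside its interval at 1000 UMIs. Ms4a4c had 8.13% (7.12 to 9.24) in WT and 13.1% (12.2 to 14.1) in KO. Thinning left out 98 WT and 174 KO resting barcodes, and without thinning Ms4a4c had 24.0% and 35.1%.

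Free RNA in the droplets gives some UMIs to cells that do not make a transcript, and erythroid-like barcodes were used to gauge it here. At equal depth, Ms4a4b had a UMI in 8.82% of WT and 29.4% of KO erythroid-like barcodes (median depths before thinning 5428 and 2303 UMIs, against 3898 and 3597 in resting barcodes). For Slfn5, the erythroid-like shares of 1.26% in WT and 1.66% in KO did not stand apart from the cycling shares of 1.34% and 1.40%. In KO the levels did not stand apart either, at 10.6 CPM (8.77 to 12.8) in cycling and 11.85 CPM (7.99 to 16.9) in erythroid-like barcodes. KO cycling barcodes were deeper, with medians before thinning of 8320 against 2303 UMIs. Unthinned, 8.69% of KO cycling and 4.73% of KO erythroid-like barcodes had a Slfn5 UMI. Whether Slfn5 in KO cycling barcodes was free RNA was not tested. In WT the cycling level of 10.9 CPM (9.22 to 12.8) was above the erythroid-like level of 4.62 CPM (2.39 to 8.07). For Slfn8 in WT the erythroid-like count was 0 of 238 barcodes, which allows up to 1.26% by 3 counts and 1.54% by the exact interval, and the cycling share of 1.56% (0.857 to 2.61) does not stand apart from it. In KO the erythroid-like share of Slfn8 was 1.48%, with 1.64% in activated and 1.87% in cycling barcodes, which do not stand apart from it. Unthinned and at unlike depth, the cycling shares of Slfn8 were 12.5% in WT and 12.15% in KO, against erythroid-like shares of 1.73% and 3.21%. The resting shares of all 7 members were above the erythroid-like shares in both libraries. All 7 were higher in KO than in WT erythroid-like barcodes, by 2.20-fold for Slfn2 to 5.49-fold for Ms4a4c.

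The first question between genotypes was whether resting Tregs without Zfp335 kept these genes. In resting Treg-like barcodes 6 of 7 members had a KO to WT ratio above 1, but only Ms4a4c passed 1.5-fold. Its ratio was 1.72 (1.60 to 1.86), higher than that of 99.1% of the 8107 genes with at least 200 UMIs. That is 1 of 7 members against 1.86% of all genes, and 0 of 7 members were lower by 1.5-fold, against 8.17%. The members' median log2 ratio was 0.16, that of all genes -0.08. In erythroid-like barcodes thinned to 1000 UMIs, Ms4a4c was detected in 0.42% in WT and 5.36% in KO. The part of this in its resting ratio was not tested.

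The other ratios in resting barcodes were small. Slfn1 was 1.15 (1.09 to 1.22), Ms4a6b 1.13 (1.10 to 1.17) and Ms4a4b 1.11 (1.09 to 1.14). The intervals of Slfn2, 1.03 (0.997 to 1.07), Slfn8, 1.05 (0.928 to 1.18), and Slfn5, 0.935 (0.872 to 1.00), included 1. These intervals exclude a change of 1.5-fold for all 6 genes as far as counting goes, with the spread between mice unknown.

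**Figure D2:**
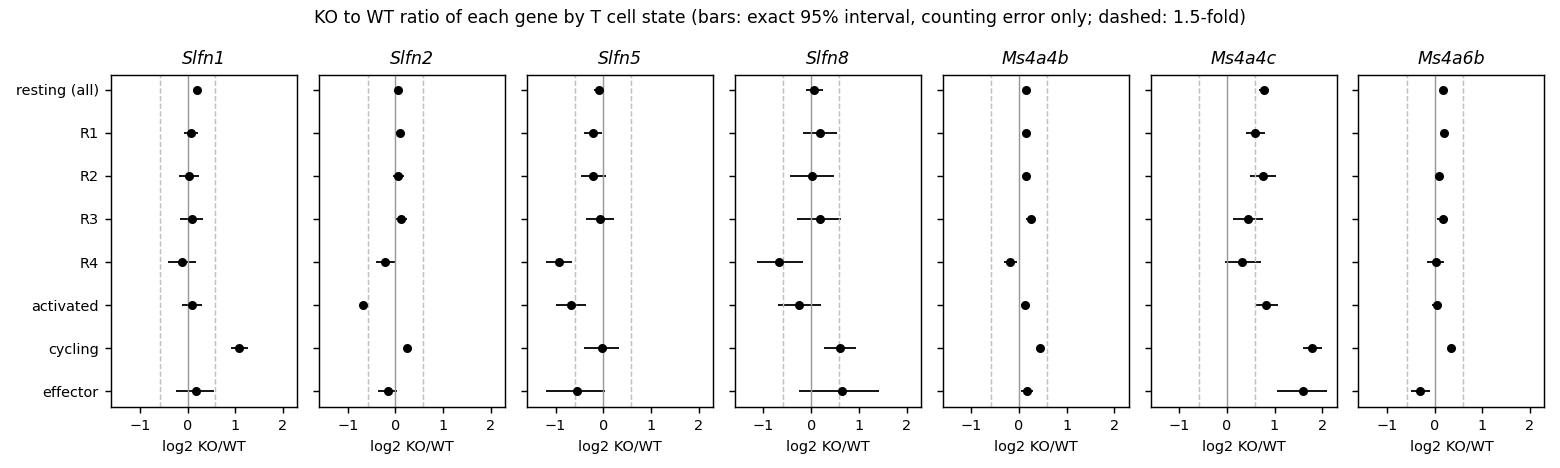
Log2 KO to WT ratio of each gene (x axis) in all resting barcodes, the finer resting clusters R1 to R4, and activated, cycling and effector barcodes (rows), with exact 95% intervals for counting error and dashed lines at 1.5-fold. Ms4a4c lay right of 0 in each row, whereas Slfn5 lay left of 0 in each row, at a ratio of 0.523 in R4.

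The resting barcodes were not alike in the libraries. A separate clustering at Leiden resolution 1.0, used as a finer view after the data were seen, gave 4 clusters made mostly of resting barcodes. They held 2752 WT and 5180 KO barcodes in all and were not an exact division of the 2742 WT and 5152 KO resting barcodes. R1 was led by Ly6c1 and Tcf7 (946 WT and 2141 KO barcodes) and R2 by Lta and Cish (396 and 1715). R3 (1332 and 339) was led by AY036118, a ribosomal RNA-like gene, and Ahnak. Itgb1 and Nrp1, both on the effector Treg marker list, were also among its leading genes. R4 was led by Ifit3, Ifit1, Cxcl10 and Isg15, which are interferon-stimulated genes, and held 78 WT and 985 KO barcodes. R3 and R4 came mostly from 1 library each, and a cluster of this kind cannot be told apart from a property of that library.

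All 4 Schlafen members were at their highest in R4. Slfn5 was at 382 CPM (321 to 451) in WT R4 and 199.9 CPM (187 to 213) in KO R4, against 109.6 and 93.8 CPM in R1. Slfn8 was at 114.6 and 72.2 CPM in R4 against 29.4 and 33.2 CPM in R1. Slfn1 was at 297 and 274 CPM against 164 and 173 CPM. In each of these cases the R4 and R1 intervals did not overlap within a library.

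The R4 to R1 ratio in KO was 2.17 for Slfn8, 2.13 for Slfn5, 1.63 for Ms4a4c and 1.58 for Slfn1. These were 4 of 7 members higher by at least 1.5-fold, against 3.05% of the 5277 genes tested. In WT, Slfn5 (3.49), Ms4a4c (1.97) and Slfn1 (1.81) passed among the 6 members with 200 UMIs, against 4.64%. Slfn8 was under that minimum, with a WT ratio of 3.89 (2.65 to 5.64). Ms4a4b and Ms4a6b did not pass, at 1.02 and 1.05 in KO and 1.29 and 1.19 in WT. R2 was below R1 for all 7 members in both libraries, by ratios of 0.655 to 0.835 in KO and 0.678 to 0.862 in WT, the interval of WT Slfn8 including 1.

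**Figure D3:**
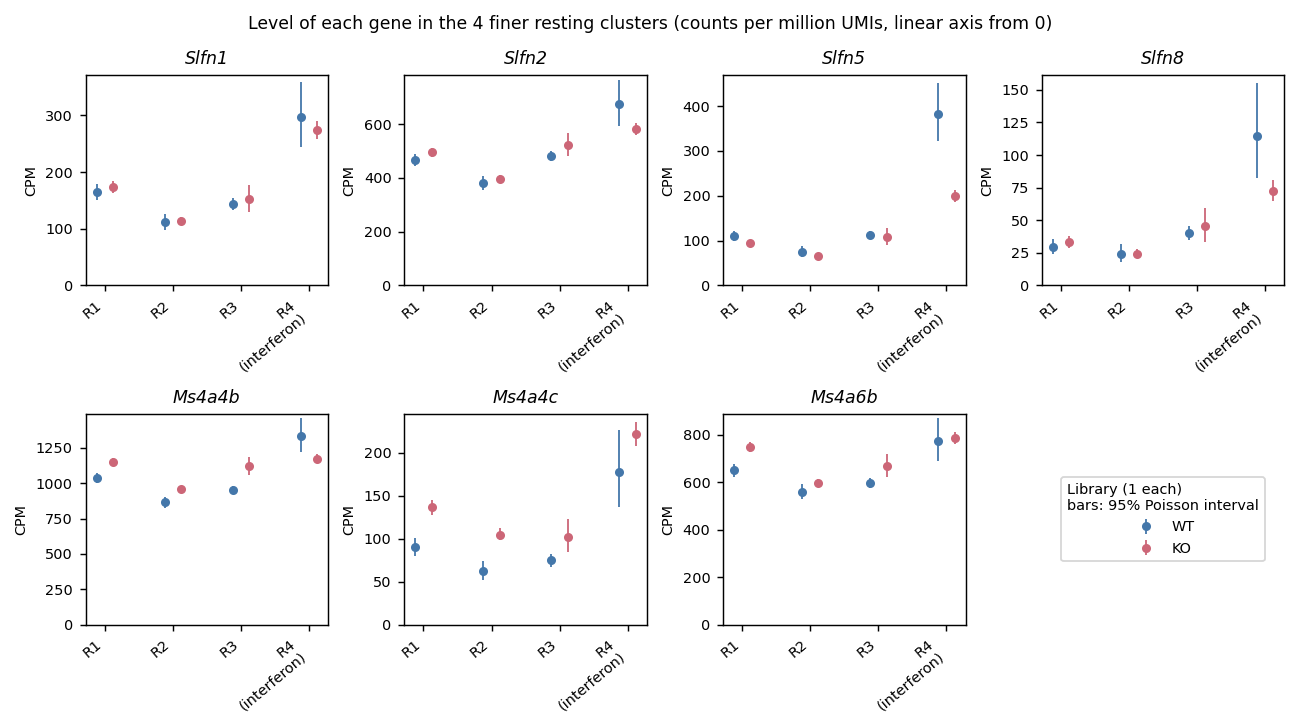
Level of each gene in CPM (y axis, linear from 0) in the resting clusters R1 to R4 of each library, with 95% Poisson intervals. R4, the cluster led by interferon-stimulated genes, was highest for Slfn1, Slfn2, Slfn5 and Slfn8 in both libraries, and WT lay above KO there for Slfn5, at 382 against 199.9 CPM.

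Compared within finer clusters, the genotypes differed in another way. The Slfn1 ratio of 1.15 over all resting barcodes was 1.06 in R1, 1.02 in R2, 1.06 in R3 and 0.920 in R4, each interval including 1. The Slfn5 ratio of 0.935 was 0.855 (0.751 to 0.976) in R1, 0.863 in R2, 0.954 in R3 and 0.523 (0.437 to 0.630) in R4. Slfn8 had 0.630 (0.456 to 0.891) in R4 and 1.01 to 1.13 in the other three clusters, with intervals that included 1. Without R4, the log2 ratio over resting barcodes was -0.01 for Slfn1, -0.38 for Slfn5 and -0.22 for Slfn8, and the members' median was -0.01 in place of 0.16. These values pool the remaining clusters and are not ratios within a cluster. The mix differed between libraries, with 396 WT and 1715 KO barcodes in R2 and 1332 and 339 in R3. Without R4, Ms4a4c stayed at 0.59 on the log2 scale and was the only member past 1.5-fold. Its ratios were 1.51 (1.33 to 1.73) in R1, 1.69 (1.41 to 2.05) in R2, 1.37 (1.10 to 1.69) in R3 and 1.25 (0.972 to 1.63) in R4.

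The members were also set against interferon genes barcode by barcode. Resting barcodes thinned to 1000 UMIs were grouped by their UMIs of 29 interferon-stimulated genes, none of them a member, of which Ifi27l2a was the most abundant. In WT 51.3% and in KO 68.7% of barcodes had 3 or more such UMIs, and 8.43% and 4.88% had none. Slfn5 in KO was at 51.5 CPM (38.7 to 67.2) with no interferon UMI and 125 CPM (119 to 131) with 3 or more, a ratio of 2.42 (1.85 to 3.24). In WT it was at 94.8 CPM (75.7 to 117) and 126 CPM (117 to 136), a ratio of 1.33 (1.06 to 1.69). Pooled over the highest group, the libraries did not differ beyond counting error, with a KO to WT ratio of 0.989 (0.906 to 1.08). They were apart in the lowest group, at 0.543 (0.379 to 0.773). The highest group has no upper limit, so its barcodes can differ in interferon RNA between libraries. Within R4, which held 78 WT and 985 KO barcodes, Slfn5 was higher in WT, at 382 against 199.9 CPM. The spread of R4 barcodes over the interferon groups was not examined.

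Slfn1 was higher with 3 or more interferon UMIs than with none in both libraries, by 1.78 (1.48 to 2.16) in KO and 1.45 (1.18 to 1.79) in WT. Ms4a4c was higher by 1.504 (1.24 to 1.84) in KO, whereas its WT ratio of 1.07 (0.826 to 1.40) included 1. The KO to WT ratio of Ms4a4c was 1.95 (1.76 to 2.16) in the highest group and 1.38 (1.01 to 1.90) in the lowest. Ms4a4b and Ms4a6b kept ratios above 1 in the lowest group, at 1.22 (1.11 to 1.34) and 1.29 (1.14 to 1.46). Slfn2 had ratios of 1.21 in KO and 1.16 in WT between the same groups.

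**Figure D4:**
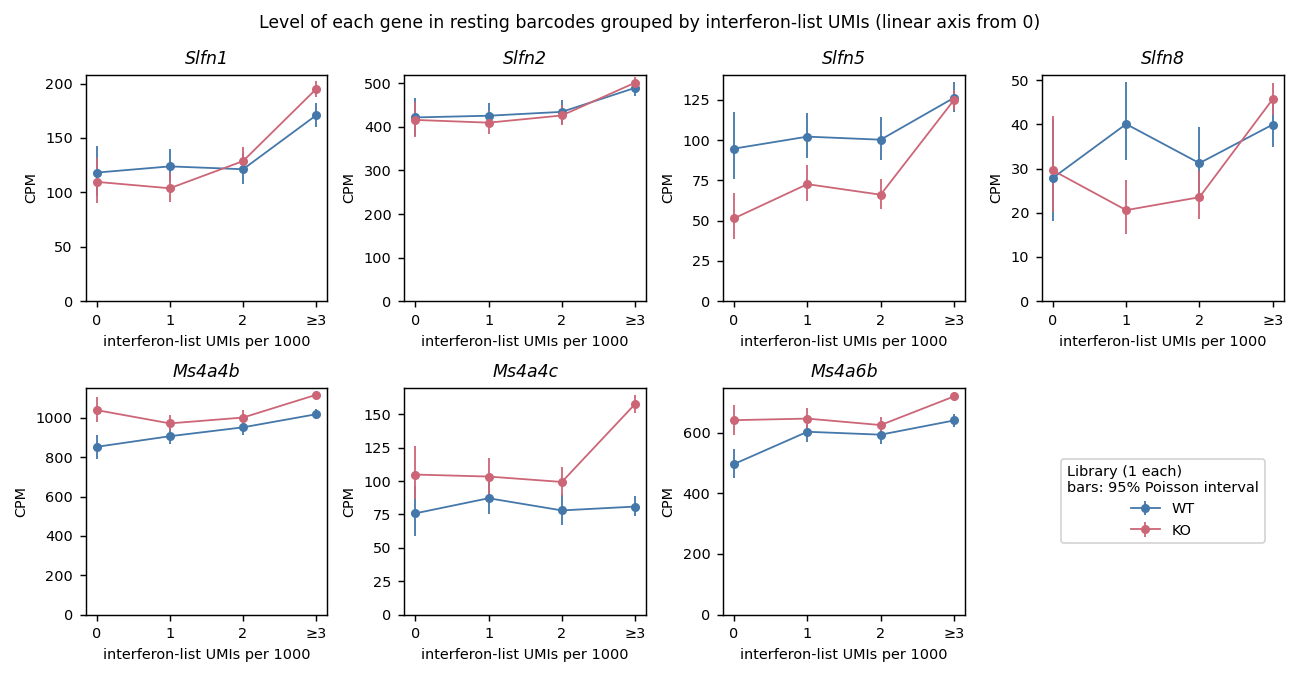
Level of each gene in CPM (y axis, linear from 0) in resting barcodes with 0, 1, 2 or 3 and more UMIs of the interferon list per 1000 UMIs (x axis), in each library, with 95% Poisson intervals. KO Slfn5 was at 51.5 CPM in the lowest and 125 CPM in the highest group, and Ms4a4c was separated by genotype most in the highest group.

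Barcode by barcode, these relations were weak. Pearson r between a member's UMIs and interferon-list UMIs over resting barcodes was highest for Slfn5, 0.243 over 4978 KO and 0.123 over 2644 WT barcodes, and lay between 0.0223 and 0.177 for the other members. Counts were close to Poisson, with a variance to mean ratio from 1.03 for Slfn8 to 1.30 for Ms4a4b, and the highest r between 2 members was 0.110. Such values in sparse counts are a description only.

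The other genes of these programs moved as follows in resting barcodes. Of 22 quiescence genes, 1 was higher in KO by 1.5-fold, against the 1.86% of all genes given above, and none was lower, against 8.17%. Their median log2 ratio was -0.20, beside -0.08 over all genes. The highest ratios were those of Tsc22d3 (1.53), Ccr7 (1.44) and Klf2 (1.31), which encode GILZ, a homing receptor and a transcription factor of naive T cells. The lowest were those of Cdkn1b (0.670), Btg2 (0.704) and Txnip (0.711), which restrain proliferation or glucose uptake. Of 26 interferon genes with 200 UMIs, 13 were higher and none lower. Oasl2 (4.61), Ifit3 (3.73) and Rtp4 (2.63) were highest, and Parp14 (0.909), Ddx58 (0.930) and Herc6 (1.04) lowest. Of 6 GITR-linked genes none passed. Their ratios were 1.325 for Tnfrsf4, 1.28 for Tnfrsf18, which encodes GITR, 1.18 for Tnfrsf9, 1.10 for Il2ra, 0.978 for Cd28 and 0.710 for Traf1.

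RNA of other cells also differed between the resting pools. Of 12 erythroid markers 6 had 200 UMIs, 4 of them higher and 1 lower in KO by 1.5-fold, and the list summed to 1130 CPM in KO and 571 CPM in WT. Of 12 neutrophil markers 8 had 200 UMIs, 2 of them lower, and the list summed to 266 and 402 CPM. No marker of either list was at 0 in both libraries. The resting pools also differed in effector Treg markers. Of 19 such markers 8 had 200 UMIs, 6 of them lower in KO by 1.5-fold and 0 higher. That list had a median log2 ratio of -1.67, beside -0.08 over all genes, and summed to 1047 CPM in KO and 1232 CPM in WT. In WT, Ms4a4c stood at 20.8 CPM in effector and 81.2 CPM in resting barcodes. The part of these lists in the members' ratios was not tested. Leaving haemoglobin, mitochondrial, ribosomal RNA-like and granule genes out of the total changed no direction for the members.

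Outside the resting state the members did not move together. In activated barcodes Ms4a4c was higher in KO, at a ratio of 1.77 (1.51 to 2.10), 1 of the 6 members with 200 UMIs, against 2.84% of all genes. Its levels there were 36.1 CPM in WT and 64.1 CPM in KO, beside 5.39 and 29.6 CPM in erythroid-like barcodes, whose part in the ratio was not tested. Slfn2, 0.626 (0.593 to 0.660), and Slfn5, 0.629 (0.506 to 0.782), were lower by at least 1.5-fold, 2 of 6, against 6.63%. Slfn1, Ms4a4b and Ms4a6b were near WT, at ratios of 1.06, 1.09 and 1.03. Slfn8 was under the minimum.

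In cycling barcodes Ms4a4c, 3.46 (3.02 to 3.97), Slfn1, 2.12 (1.89 to 2.39), and Slfn8, 1.52 (1.20 to 1.93), were higher in KO by at least 1.5-fold. That is 3 of 7, against 6.14% of all genes, with 0 of 7 lower, against 6.37%. Slfn1 was at 32.6 CPM in WT and 69.3 CPM in KO, and Ms4a4c at 21.0 and 72.6 CPM. Both held in the S phase-like cluster, at 2.27 and 3.28, and in the mitotic-like cluster, at 2.16 and 3.99. The erythroid-like levels of Ms4a4c were 5.39 CPM in WT and 29.6 CPM in KO, and those of Slfn1 11.9 and 30.4 CPM, and their part in the cycling ratios was not tested. Cycling barcodes were deeper in WT, with a median of 13964.5 UMIs against 8304 in KO. Thinned to 1000 UMIs, Ms4a4c was detected in 2.455% (1.545 to 3.694) of WT and 7.77% (6.24 to 9.54) of KO cycling barcodes. Slfn1 intervals overlapped there, at 4.69% and 5.62%, but not at 2000 UMIs, at 8.10% (6.39 to 10.09) and 14.2% (12.15 to 16.5). Slfn8 intervals overlapped at both depths, and its cycling shares at 1000 UMIs did not stand apart from the erythroid-like shares. The cycling pools also differed in kind, as the 19 effector Treg markers summed to 5114 CPM in WT and 1647 CPM in KO. The part of this difference in the cycling ratios was not tested.

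Effector Treg-like barcodes were few in KO, 75 against 1818 in WT. Among those 75, Ms4a4c was at 62.8 CPM (43.8 to 87.4) against 20.8 CPM (18.5 to 23.4), a ratio of 3.02 (2.06 to 4.30). Slfn8 also passed 1.5-fold, at 1.57, with an interval of 0.844 to 2.69 that included 1. These were 2 of 7, against 8.38% of all genes, and none was lower by that fold, against 11.5%. Ms4a6b was at 0.811 (0.706 to 0.927). The part of the higher Ms4a4c level in KO erythroid-like barcodes in its effector ratio was not tested.

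A further T-lineage cluster led by haemoglobin and granule genes was left unnamed, since its barcodes were shallow (973 WT and 3189 KO, median 680 and 1362 UMIs). Ms4a4c was at 35.2 CPM in WT and 104.2 CPM in KO there, a ratio of 2.96 (2.05 to 4.43), and Slfn1 at 55.1 and 89.8 CPM, a ratio of 1.63 (1.21 to 2.25). Slfn5 was at 56.3 and 37.5 CPM, a ratio of 0.667 (0.484 to 0.933).

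Neutrophil-like barcodes (194 WT and 190 KO) held some members too. Slfn2 was at 351 CPM (329 to 374) in WT and 352 CPM (329 to 375) in KO, against 52.0 and 114.5 CPM in erythroid-like barcodes. Ms4a4b was at 72.6 and 122.3 CPM, against 72.8 and 217 CPM there. Slfn1 was at 80.2 CPM in WT and 52.5 CPM in KO, and Ms4a4c at 44.3 and 42.2 CPM. Slfn2 was thus found outside T cells in these libraries, above the erythroid-like level. So was Slfn1, and so was Ms4a4c in WT. Thinned to 1000 UMIs, Slfn1 was in 11.3% of WT and 13.7% of KO neutrophil-like barcodes, against 2.94% and 4.99% of erythroid-like ones. Ms4a4c was in 5.155% and 3.68%, against 0.42% and 5.36%, with overlapping intervals in KO.

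Of the 22 Slfn and Ms4a genes that were not members, 8 reached 200 UMIs over the kept barcodes, and 14 did not. Several marked other lineages. Ms4a1 was at 780 CPM in WT and 1033 CPM in KO B cell-like barcodes (43 and 33), and at 0.272 and 0.244 CPM in resting barcodes. Ms4a3, a gene of granulocyte and monocyte progenitors, was at 189.9 and 178 CPM in neutrophil-like barcodes, and Ms4a6c at 264 and 238 CPM. Slfn4, a myeloid Schlafen gene, was at 42.5 and 26.4 CPM there, and Slfn14 was highest in erythroid-like barcodes, at 35.4 and 52.9 CPM.

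Of these genes, the neighbours of the members in resting barcodes were low. Ms4a6c was at 14.4 CPM in WT and 20.2 CPM in KO, a ratio of 1.40 (1.16 to 1.69), and in cycling barcodes its ratio was 2.69 (1.99 to 3.66). Slfn9 was at 10.3 and 7.32 CPM, a ratio of 0.714 (0.556 to 0.920). Unlike the members, Slfn9 was higher in WT cycling (18.5 CPM) than in WT resting barcodes. Slfn3 (2.36 and 2.10 CPM) and Ms4a6d (3.72 and 4.00 CPM) had KO to WT intervals that included 1.

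Likeness of pattern was measured as Pearson r of log2(CPM + 1) over 15 points, the T-lineage clusters of each library with at least 50 barcodes, among 10491 genes outside both families. The points share 2 libraries and differ in depth, so r is a description. They include the shallow cluster led by haemoglobin and granule genes in both libraries. Also included are unnamed clusters led by Camp and by Mpo in KO (853 and 348 barcodes) and by Hspa1b in WT (58). The genes most like Slfn1 were Shisa5 (0.946), Evl (0.928) and Irf9 (0.925), and Irf9, a transcription factor of the interferon response, was also among the 3 for Slfn8 (0.897), beside Trpc4ap and Txk. Ms4a6b was most like Klf13 (0.948), 9930111J21Rik2 (0.947) and S1pr1 (0.940), the last a receptor that lets resting T cells leave lymphoid tissue. Ms4a4b was most like Ppp1r18, Sys1 and Selplg (0.952 to 0.943), and Ms4a4c like 1600014C10Rik, Grifin and Rpl35a (0.951 to 0.931). Slfn5 was most like Tcp11l2, Kdm7a and Uqcrh (0.940 to 0.917), and Slfn2, with the lowest values, like 1500004A13Rik, Zswim8 and Inpp5f (0.847 to 0.844).

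Among the members themselves, r over the same 15 points was highest for Slfn1 with Slfn8 (0.902) and Ms4a4b with Ms4a6b (0.878). It was lowest for Slfn2 with Ms4a4c (0.200) and Slfn5 with Ms4a4c (0.278). The 3 Ms4a genes, though neighbours on the chromosome, did not form a single pattern, as Ms4a4c had r of 0.447 with Ms4a4b and 0.382 with Ms4a6b.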

How the data were processed

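Cells were captured with 10x 3′ chemistry, and per the labels the authors aligned and counted reads with Cell Ranger 5.0.1 against mm10. The deposited values are UMI counts per gene and barcode, not normalised. Uniquely mapped reads only are counted, so near-identical genes lose reads. Each count marks 1 molecule, so CPM needs no division by length. Members and gene lists were chosen with earlier results of these data known.

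Kept barcodes had 300 or more genes and no more than 5% of UMIs from mitochondrial genes, and the highest Scrublet scores (5% of WT, 8% of KO) were removed with scanpy 1.11.5. Clustering used 2000 variable genes, 30 principal components and Leiden at resolution 0.5, leaving out 67 genes (Slfn, Ms4a, Zfp335, haemoglobin, granule, sex-linked, ribosomal RNA-like and mitochondrial). UMIs were summed per library and state as CPM with exact Poisson intervals. Ratios have exact conditional binomial intervals and shares Clopper-Pearson intervals, all 95%. With 1 library per genotype no test was made. Counts past 1.5-fold were taken over genes with at least 200 UMIs in the 2 groups, after adding 0.5 UMI. All 7 members, other family genes with 200 UMIs, the 3 highest and lowest of each list and the 3 genes most like each member are named. The procedures were tested on simulated data.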

Additional observations from a re-analysis of the deposited data

Results flagged for a closer look

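By summed CPM, Slfn2 moved in opposite directions between T cell states. Its KO to WT ratio was 1.18 (1.13 to 1.23) in cycling and 0.626 (0.593 to 0.660) in activated Treg-like barcodes. Ms4a6b had ratios of 1.13 (1.10 to 1.17) in resting and 1.27 (1.22 to 1.33) in cycling barcodes, but 0.811 (0.706 to 0.927) in effector barcodes, of which KO had 75. In each case the counting intervals lay on opposite sides of 1. Thinned to 1000 UMIs, Slfn2 was detected in 26.9% of WT and 27.3% of KO cycling barcodes, with overlapping intervals. At 2000 UMIs these were apart, at 42.1% and 48.7%. In activated barcodes at 1000 UMIs it was at 34.0% and 27.1%, with intervals apart. Ms4a6b in effector barcodes was at 37.05% and 37.3%, with overlapping intervals. KO to WT ratios were put through the alternatives below in resting barcodes only. The difference between states was not tested, since each genotype had 1 library.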

How the results depend on the processing

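Alternatives were another gene minimum, no doublet removal, no mitochondrial filter, other pooling, depth, denominator and clustering. No paired analysis was possible because each genotype had 1 library. The members' median log2 KO to WT ratio in resting barcodes was 0.16 and became 0.31 without the mitochondrial filter. That filter left out 6471 of 14524 WT and 4364 of 18134 KO barcodes. Without it the resting state held 6296 WT and 7874 KO barcodes, and Slfn5 and Slfn8 changed sign, to 0.03 and -0.04. Under 2 alternatives chosen after seeing the data, the members' median became 0.079 and -0.012. The first took barcodes with no interferon-list UMI, where 0 members passed 1.5-fold, and the second left out R4. Slfn1 turned to -0.11 and -0.012 under these. The mean of single-barcode CPM moved the effector to resting median in WT to -0.58, and the cycling to resting medians to -1.52 in WT and -0.70 in KO. Thinning to 1000 UMIs moved the latter to -1.41 and -0.80. States by markers left 8 WT resting barcodes, so this gave no value except the KO cycling median, -0.80. Ms4a4c stayed above WT in all 9 alternatives that gave a value, from 0.46 to 0.99 on the log2 scale, and Slfn5 ran from -0.88 to 0.03. Of 21 alternative values for the members' KO minus WT shares in resting barcodes, 8 lay outside the interval at 1000 UMIs. The Ms4a6b difference of 5.80 points became 2.71 at 500 UMIs, 2.59 at 2000 UMIs and 2.45 without thinning. The cause of these shifts was not tested. Sparse counts limit Slfn8 most.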
